A study of Homo sapiens with 7 samples.

Results

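Kasumi-1 is an established human myeloblast line derived from peripheral blood of an acute myeloid leukaemia. Its t(8;21) translocation gives rise to AML1-ETO, a protein that joins AML1 (RUNX1), which binds DNA, to the co-repressor partner ETO (RUNX1T1). ChIP-seq, which sequences the DNA that an antibody brings down together with its target, was carried out in untreated, formaldehyde-fixed cells for AML1, AML1-ETO (with an antibody against ETO), N-CoR, p300 and H3K4me3. For each antibody the replicates were pooled before peak calling, so that 1 list of 100-bp windows centred on peak summits stood for each and no spread between replicates could be given. The 5 lists together held 70435 windows.

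Of the 10004 N-CoR windows, 638 (6.38%) shared at least 1 bp with a p300 window and no base with any AML1 or AML1-ETO window. These regions, called members here, were therefore chosen by the measured positions of the N-CoR, p300, AML1 and AML1-ETO summits, and nothing in those positions is given as a test below. A p300 window was shared by 638 of the 2396 N-CoR windows without a Runx protein (26.6%) and by 3102 of the 7608 with one (40.8%). H3K4me3, gene annotation and sequence had no part in the choice. A window is called near H3K4me3 when an H3K4me3 summit lay within 1000 bp of its own summit, and away from it otherwise, and positions relative to a gene start are negative upstream of it. Unless protein-coding starts are named, the start is the nearest one annotated for any kind of transcript.

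N-CoR is a co-repressor that carries no sequence-specific DNA-binding domain and brings histone deacetylase activity, in particular that of HDAC3, to the factors that recruit it. p300 is a histone acetyltransferase and co-activator that is likewise brought to DNA by other proteins. In myeloid cells many regulatory regions are bound by ETS factors, among them PU.1, by C/EBP and AP-1 factors and by Runx proteins, while H3K4me3 marks the nucleosomes next to active or poised promoters.

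Sequences found at these regions are shown first, because the co-regulators do not read DNA themselves and the comparisons below turn on which short sequences lay under the summits. The windows printed are the lowest-numbered members, near and then away from H3K4me3, that held a sequence more frequent in members than 1000 bp away. Each is the plus strand of GRCh37 (hg19), 5′ to 3′. Capitals mark matches on either strand to AGGAAG and CCGGAA (ETS cores, the second being GC-rich), GAGGAA (PU.1, an ETS factor), TGANTCA (AP-1) and TTGCNNAA (C/EBP). GAGGAA and AGGAAG overlap wherever GAGGAAG occurs.
ENSG00000262898, chr17:81147712-81147811: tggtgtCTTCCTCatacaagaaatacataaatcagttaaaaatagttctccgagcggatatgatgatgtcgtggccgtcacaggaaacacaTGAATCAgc
VPS37B, chr12:123356610-123356709: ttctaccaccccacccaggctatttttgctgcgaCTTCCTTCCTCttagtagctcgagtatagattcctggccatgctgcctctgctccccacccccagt
MYO18A, chr17:27467250-27467349: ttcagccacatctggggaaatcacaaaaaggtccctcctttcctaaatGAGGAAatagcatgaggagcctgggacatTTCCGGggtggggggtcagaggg
LINC02580, chr2:43396028-43396127: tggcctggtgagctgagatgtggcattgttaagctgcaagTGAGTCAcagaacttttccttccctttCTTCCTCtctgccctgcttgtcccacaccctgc
BCL2L1-AS1, chr20:30262897-30262996: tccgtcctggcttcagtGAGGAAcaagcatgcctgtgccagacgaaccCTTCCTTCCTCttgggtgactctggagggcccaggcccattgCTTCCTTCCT
HNRNPA1L3, chr16:51603640-51603739: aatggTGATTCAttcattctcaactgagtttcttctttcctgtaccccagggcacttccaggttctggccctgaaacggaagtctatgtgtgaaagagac
ENSG00000278095, chr12:26427750-26427849: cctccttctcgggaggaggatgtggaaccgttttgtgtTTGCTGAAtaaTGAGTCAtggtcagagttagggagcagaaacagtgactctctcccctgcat
LINC01877, chr2:200603645-200603744: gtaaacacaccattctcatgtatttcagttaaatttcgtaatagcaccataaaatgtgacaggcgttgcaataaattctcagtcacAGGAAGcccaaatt
ENSG00000258717, chr14:101144041-101144140: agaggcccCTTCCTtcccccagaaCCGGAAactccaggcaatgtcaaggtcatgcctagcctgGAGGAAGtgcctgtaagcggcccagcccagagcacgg

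Each window is named for its nearest annotated start. The VPS37B window has overlapping ETS and PU.1 matches, and its N-CoR and p300 summits were 17 bp apart. Of the 5 windows away from H3K4me3, that of LINC01877 was 65589 bp downstream of the nearest start and held a single AGGAAG match, with the N-CoR and p300 summits 4 bp apart. The MYO18A and HNRNPA1L3 windows, although they share no base with a Runx window, had an AML1-ETO summit 119 and 131 bp away.

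The members were mostly promoter regions. An H3K4me3 summit lay within 1000 bp of 408 of the 638 N-CoR summits (63.9%, interval 60.1 to 67.7%), against 26.9% of all N-CoR windows. Intervals are exact Clopper-Pearson 95% intervals and cover counting error over peaks only. An annotated transcription start lay within 1000 bp of 413 members (64.7%, 60.9 to 68.4%), against 33.4% of all N-CoR windows, and the median distance to a start was 162 bp. Both features largely coincided, since 368 of the 408 members near H3K4me3 were at a start (90.2%) and 45 of the 230 away from it were (19.6%). Starts of protein-coding genes alone accounted for 364 members (57.1%). Of all 11020 p300 windows, 7903 were near H3K4me3, a larger share than that of the members. Their median distance to a start was 110 bp, and that of all N-CoR windows was 3543 bp.

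The share near H3K4me3 stood between those of windows with either co-regulator alone. N-CoR windows with neither p300 nor a Runx protein were near H3K4me3 in 467 of 1758 cases (26.6%), a difference of 37.4 percentage points from the members (adjusted exact p = 1.74e-59). p300 windows with neither N-CoR nor a Runx protein, which are centred on the p300 summit, were near it in 5079 of 5703 cases (89.1%, difference -25.1 points, adjusted exact p = 5.63e-52). N-CoR windows with p300 and a Runx protein were near it in 1110 of 3102 cases (35.8%, difference 28.2 points, adjusted exact p = 2.40e-37). Transcription starts gave the same order, with 32.3% of the windows with N-CoR alone, 39.4% of those with p300 and a Runx protein and 87.4% of those with p300 alone (adjusted exact p = 7.16e-44, 2.92e-30 and 5.89e-41 against the members). All p-values are from two-sided Fisher's exact tests, adjusted by the Benjamini-Hochberg method over 204 comparisons of shares. They compare counts of peaks in single pooled lists and carry no replicate error.

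**Figure D1:**
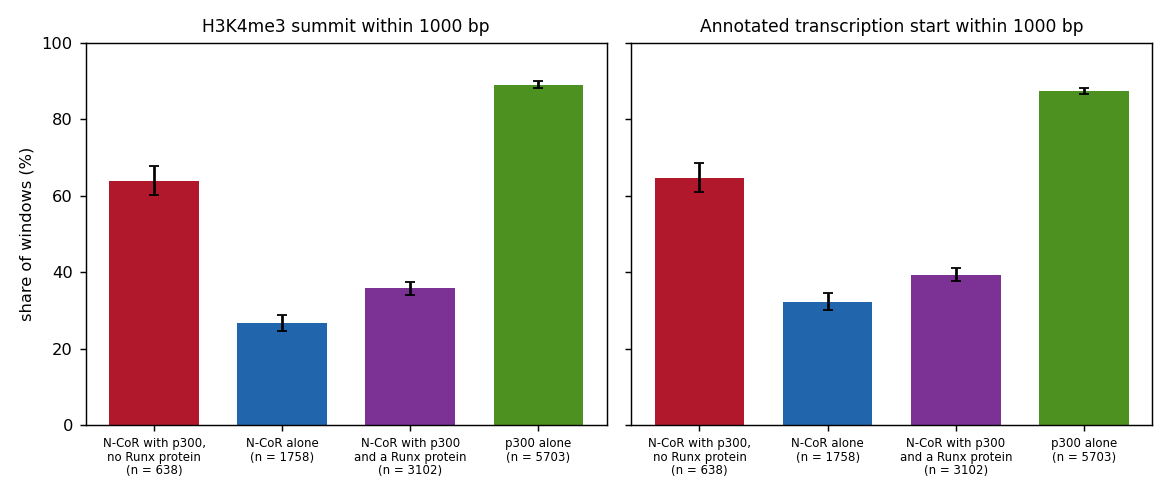
Share of windows (%) with an H3K4me3 summit (left) or an annotated transcription start (right) within 1000 bp, for the members and 3 other classes of window; bars are shares and error bars exact Clopper-Pearson 95% intervals. The members, at 63.9% and 64.7%, lie between N-CoR alone (26.6% and 32.3%) and p300 alone (89.1% and 87.4%).

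The position in the deposited N-CoR list went along with both membership and promoters. The list carries no score, and its order is not stated to be a ranking. Members made up 15 of the first 1001 windows (1.50%) and 106 of the last 1001 (10.6%), while the share of N-CoR windows with a Runx protein went from 96.4 to 54.5% and that with p300 from 77.8 to 20.6%. Among those 15 members 26.7% were near H3K4me3, and among those 106 members 72.6% were. In the first 5002 windows of the list 46.7% of members were near H3K4me3. The median peak number was 6772.5 for members, 7127.5 for N-CoR alone and 2446.5 for N-CoR with p300 and a Runx protein, so the classes were also compared within the first 5002 windows and within the rest, a split chosen after seeing the data. Against N-CoR alone the shares near H3K4me3 were 46.7 and 20.9% in the first 5002 (adjusted exact p = 8.16e-10 over these 4 comparisons) and 70.9 and 28.3% in the rest (adjusted exact p = 6.64e-57). Against windows with p300 and a Runx protein they were 46.7 and 26.8% in the first 5002 (adjusted exact p = 4.37e-08) and 70.9 and 62.3% in the rest, where the difference was 8.62 points (adjusted exact p = 0.00238) in place of 28.2 over the whole list.

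Summits at promoters lay in a common arrangement around the start. For the 349 members nearest to and within 1000 bp of the start of a protein-coding transcript, the N-CoR summit had a median position of -58 bp (quartiles -119 and -6 bp), and it was upstream of the start at 274 (78.5%) and at most 200 bp upstream at 220 (63.0%). The p300 summit had a median position of -42 bp. It was on the downstream side of the N-CoR summit at 210 members and on the upstream side at 139, with a median offset of 16 bp. H3K4me3 summits near 326 of these members had a median position of 239.5 bp and were downstream of the start at 234 (71.8%). Starts on both strands lay within 1000 bp of 54 members (15.5%). The median N-CoR position was -65.5 bp for 420 windows with N-CoR alone and -51 bp for 892 with p300 and a Runx protein, and the p300 summit was at 6 bp for 4566 windows with p300 alone. These positions are given without a test. The rule keeps the p300 summit of a member within 99 bp of its N-CoR summit, so the positions of both summits in members are tied. The -42 bp of members beside the 6 bp of p300 alone is therefore a description tied to the rule.

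**Figure D2:**
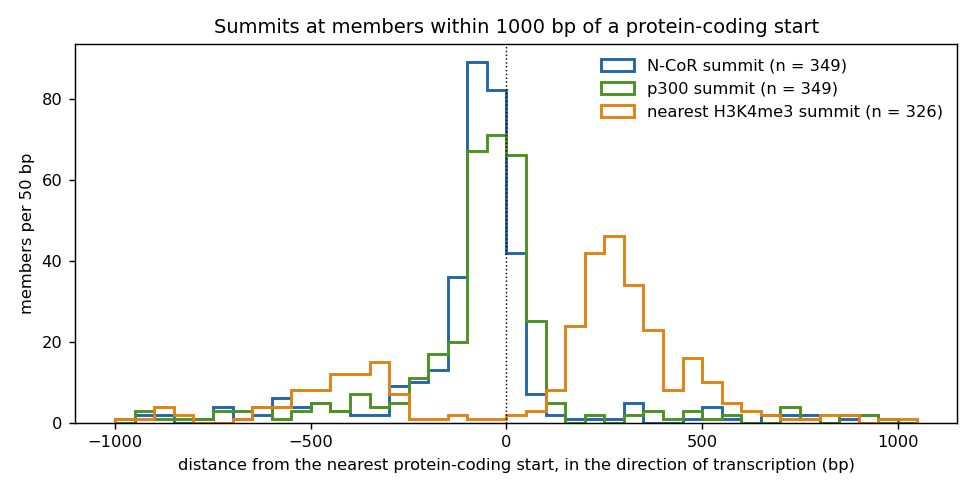
Number of members per 50 bp by the position of the N-CoR summit (n = 349), the p300 summit (n = 349) and the nearest H3K4me3 summit (n = 326), relative to the nearest protein-coding start and in the direction of transcription; the dotted line is the start. N-CoR and p300 summits crowd just upstream of the start (medians -58 and -42 bp), and H3K4me3 summits lie in a main group downstream, with a smaller one upstream.

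Few members coincided with the H3K4me3 summit itself. It was within 100 bp at 8 of the 638 (1.25%), and among the 408 members near it the median distance was 344 bp, with quartiles of 262.75 and 451.5 bp. That median was similar, at 359 bp, over all N-CoR windows near H3K4me3. It was 402 bp for N-CoR alone, 341 bp with p300 and a Runx protein and 261 bp for p300 alone. H3K4me3 summits flanked the N-CoR summit on both sides within 1000 bp at 86 of the 408 members near H3K4me3 (21.1%, interval 17.2 to 25.4%). The same was found at 16.9% (13.6 to 20.6%) of windows near H3K4me3 with N-CoR alone, 14.96% (12.9 to 17.2%) of those with p300 and a Runx protein and 26.7% (25.5 to 27.9%) of those with p300 alone. Only summits were used, so the width of each H3K4me3 domain was not analysed here.

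The 230 members away from H3K4me3 lay mainly within genes. Of these, 125 (54.3%) were in introns, 11 in exons, 19 within 10 kb upstream of a gene and 30 intergenic, and 159 (69.1%) had no H3K4me3 summit within 10 kb. Over all 638 members, 413 were at promoters, 149 in introns, 13 in exons, 24 upstream and 39 intergenic. These counts by element are a description, without the shares of other windows or of the genome beside them. The nearest start belonged to a protein-coding gene at 443 members, to a long non-coding RNA at 143 and to another kind of transcript at 52. Median GC content of the 100-bp window was 64% near H3K4me3 and 50% away from it, with a median of 8 and 2 CpG dinucleotides. Over all windows GC content had a median of 59% for members, 48% for N-CoR alone and 66% for p300 alone. Near and away from H3K4me3 it was 60 and 45% for N-CoR alone and 67 and 58% for p300 alone. Sequence comparisons were therefore made within windows near H3K4me3 and within those away from it as well as over all.

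The distances between the N-CoR and p300 summits, which the rule limits to 99 bp, had a median of 35 bp with quartiles of 17 and 55 bp. They were at most 10 bp at 105 members (16.5%) and 0 at 3. The median was 40 bp near H3K4me3 and 27 bp away from it, and 24 bp for N-CoR windows with p300 and a Runx protein. Just inside the limit were the members at H2AC8 and H4C12, both with 99 bp, and ESYT1, with 97 bp. Just outside it were N-CoR windows at CARMIL2P1 and RPP38, each 100 bp from a p300 summit, and at MCTP1, at 101 bp. There were 25 members with 90 to 99 bp and 34 windows without a Runx protein with 100 to 109 bp.

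Absence of a Runx window did not mean distance from Runx proteins. An AML1 or AML1-ETO summit lay between 100 and 250 bp away at 106 members (16.6%) and between 100 and 1000 bp away at 202 (31.7%). Within 1000 bp an AML1-ETO summit was found at 173 members and an AML1 summit at 114. Leaving out those 202 left 436 members, of which 266 (61.0%) were near H3K4me3. The same step left 1358 of 1758 windows with N-CoR alone and 3851 of 5703 with p300 alone. Runx summits at such distances were therefore not particular to the members. The Runx sequence TGTGGT was in 11 member windows (1.72%), against 5.64% of windows 1000 bp away and 19.5% of all N-CoR windows, a comparison tied to the rule and therefore given as a description.

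An ETS core was present in nearly as many member windows as not. At least 1 of AGGAAG and CCGGAA was present in 309 of 638 windows (48.4%), both in 21 and neither in 329. AGGAAG was in 215 (33.7%), against 9.01% of windows 1000 bp to either side and 46.2% of all N-CoR windows. CCGGAA was in 115 (18.0%), against 1.96% to either side and 9.93% of all N-CoR windows. GAGGAA, the PU.1 sequence, was in 152 (23.8%, against 8.23% to either side and 30.8% of all N-CoR windows). A match is a run of letters and not a binding measurement.

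CCGGAA was mostly found at members near H3K4me3, whereas AGGAAG was found in both groups. Near H3K4me3, AGGAAG and CCGGAA were each in 103 of 408 windows (25.2%). Away from it, AGGAAG was in 112 of 230 (48.7%) and CCGGAA in 12 (5.22%). Distances of their centres were measured from both summits. Near H3K4me3 the median distance of AGGAAG was 16 bp from the N-CoR summit and 28 bp from the p300 summit, and that of CCGGAA was 19.5 and 29.5 bp. Away from it AGGAAG was at a median of 17 bp from the N-CoR and 22 bp from the p300 summit. These medians rest on 104 and 106 members near H3K4me3 and 115 away from it, slightly more than the windows counted above. The sequences were searched within 50 bp of the N-CoR summit, which bounds distances to it. Distances to p300 are bounded more loosely, by that search together with the 99 bp that the rule allows between summits. The distances to N-CoR and to p300 are therefore not compared.

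**Figure D3:**
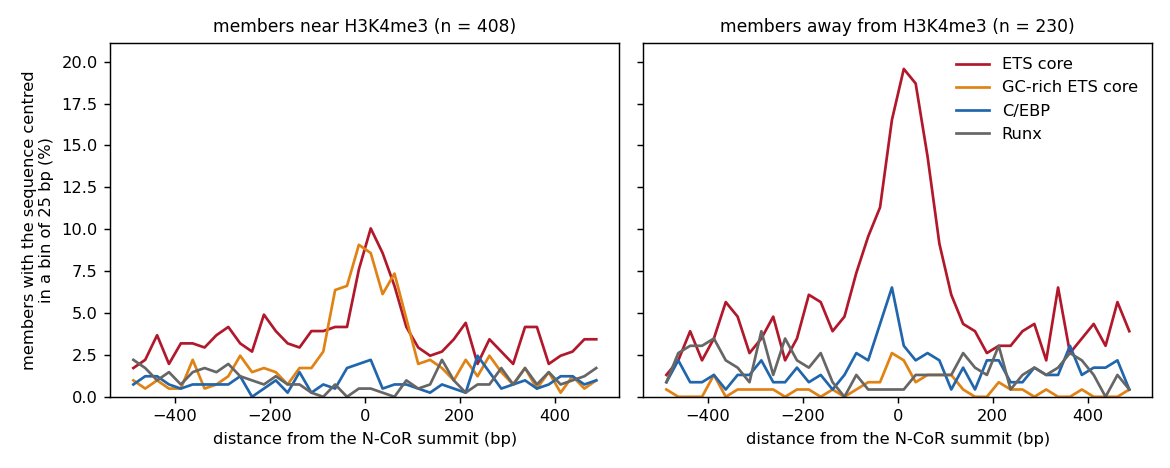
Share of members (%) with a sequence centred in each bin of 25 bp, by distance from the N-CoR summit, for 408 members near H3K4me3 (left) and 230 away from it (right). Both ETS cores peak within 100 bp of the summit near H3K4me3, AGGAAG (ETS core) has the larger peak away from it, and Runx shows no peak.

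CCGGAA was more frequent in promoter members than at promoters with either co-regulator alone. Among windows near H3K4me3 it was in 25.2% of members, 15.2% of those with N-CoR alone (difference 10.0 points, adjusted exact p = 0.00150) and 13.3% of those with p300 alone (difference 11.96 points, adjusted exact p = 1.01e-08). Because windows with p300 alone are centred on the p300 summit, members were also centred on it, a choice made after seeing the data, and CCGGAA was then in 25.7% of those near H3K4me3 (difference 12.4 points, exact p = 2.26e-09 adjusted over 66 comparisons). With p300 and a Runx protein it was in 23.3% (difference 1.91 points, adjusted exact p = 0.703). When windows with a Runx summit within 1000 bp were left out of the members and of both classes without a Runx protein, the difference from N-CoR alone was 7.68 points and no longer passed (adjusted exact p = 0.111), and that from p300 alone was 7.62 points (adjusted exact p = 0.0116). Away from H3K4me3 the 5.22% of members compared with 3.87% of N-CoR alone and 6.09% of p300 alone (adjusted exact p = 0.608 and 0.942).

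AGGAAG was more frequent in the members than in p300 alone, and its difference from N-CoR alone did not pass once promoters were considered separately. It was in 25.2% of members and 12.6% of p300-alone windows near H3K4me3 (difference 12.7 points, adjusted exact p = 6.19e-10), and in 48.7% and 30.9% away from it (difference 17.8 points, adjusted exact p = 2.50e-05). Centred on the p300 summit the members had 24.5 and 47.8% (adjusted exact p = 4.73e-09 and 6.93e-05). Over all windows it was less frequent in members than in N-CoR alone, with 33.7 against 46.1% (difference -12.4 points, adjusted exact p = 4.81e-07). Within windows near H3K4me3 that difference was -0.24 points (adjusted exact p = 1) and away from it -4.91 points (adjusted exact p = 0.382). Compared with windows that also had a Runx protein, AGGAAG was less frequent in members near H3K4me3 (25.2 against 35.9%, difference -10.7 points, adjusted exact p = 0.000543), and away from it the difference was -6.48 points (adjusted exact p = 0.201).

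**Figure D4:**
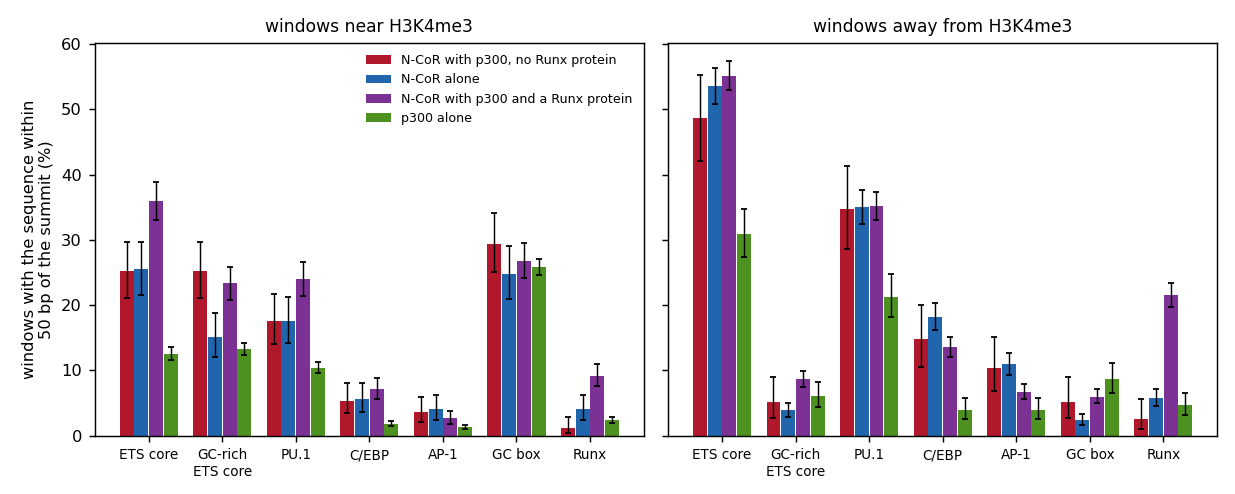
Share of windows (%) with each sequence within 50 bp of the summit, near H3K4me3 (left) and away from it (right), by class; bars are shares and error bars exact Clopper-Pearson 95% intervals. Near H3K4me3 the GC-rich ETS core (CCGGAA) is in 25.2% of members against 15.2% of N-CoR alone and 13.3% of p300 alone, and away from H3K4me3 p300 alone is lowest for the ETS core, PU.1, C/EBP and AP-1.

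C/EBP, AP-1 and GAGGAA sequences were also more frequent in members than in p300 alone. C/EBP (TTGCNNAA), bound by the factors that drive granulocyte genes, was in 56 members (8.78%), against 4.47% to either side and 12.2% of all N-CoR windows. It was more frequent than in p300 alone both near H3K4me3 (5.39 against 1.85%, adjusted exact p = 0.000262) and away from it (14.8 against 4.01%, adjusted exact p = 3.35e-06). With no Runx summit within 1000 bp the first of these was 3.76 against 1.98% and did not pass (adjusted exact p = 0.226). AP-1 (TGANTCA), bound by Fos and Jun dimers, was in 39 (6.11%), against 2.51% to either side and 7.29% of all N-CoR windows. It too was more frequent than in p300 alone near H3K4me3 (3.68 against 1.32%, adjusted exact p = 0.00488) and away from it (10.4 against 4.01%, adjusted exact p = 0.00416). With no Runx summit within 1000 bp the latter was 10.0 against 5.45% and did not pass (adjusted exact p = 0.226). With members centred on the p300 summit AP-1 near H3K4me3 was 1.96 against 1.32% and did not pass (adjusted exact p = 0.502), while the other calls of AP-1, C/EBP and GAGGAA against p300 alone, near and away, passed. GAGGAA differed from p300 alone in the same way, by 7.27 points near H3K4me3 (adjusted exact p = 0.000180) and by 13.5 points away from it (adjusted exact p = 0.000546). Over all windows C/EBP (8.78 against 14.8%, adjusted exact p = 0.000510) and GAGGAA (23.8 against 30.4%, adjusted exact p = 0.00941) were less frequent in members than in N-CoR alone, the latter not passing with no Runx summit within 1000 bp (25.5 against 32.0%, adjusted exact p = 0.0528). None of these 3 passed that test within either group of windows (adjusted exact p = 1 in 5 of the 6 comparisons and 0.457 for C/EBP away from H3K4me3). Near H3K4me3, GAGGAA was less frequent than with p300 and a Runx protein (17.6 against 24.0%, adjusted exact p = 0.0374), a call lost with no Runx summit within 1000 bp (adjusted exact p = 0.164) and with a motif window of 100 bp to either side (adjusted exact p = 0.0529). AP-1 away from H3K4me3 was in 10.4% of members and 6.73% of windows with p300 and a Runx protein (adjusted exact p = 0.142), and with the motif window of 100 bp it passed (19.1 against 11.8%, adjusted exact p = 0.0137).

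Promoter sequences came next. The GC box (GGGCGG), bound by Sp factors, was in 132 members (20.7%, against 7.05% of windows 1000 bp and 13.1% of windows 300 bp to either side and 10.3% of all N-CoR windows) and in 120 of the 408 near H3K4me3 (29.4%). NRF1 (GCGCANGCG), whose factor regulates nuclear genes for mitochondria, was in 20 members (3.13%, against 0.549% to either side and 0.65% of all N-CoR windows), of which 19 were near H3K4me3. Both exceeded N-CoR alone over all windows (adjusted exact p = 6.13e-14 and 0.000279) and not within windows near H3K4me3 (adjusted exact p = 0.348 and 0.199). With no Runx summit within 1000 bp, however, NRF1 passed near H3K4me3 (5.26 against 0.694%, adjusted exact p = 0.00979) and the GC box away from it (5.29 against 1.50%, adjusted exact p = 0.0233). With a motif window of 100 bp to either side, the GC box passed near H3K4me3 (52.5 against 42.2%, adjusted exact p = 0.0127) and away from it (12.6 against 4.80%, adjusted exact p = 0.000168). Compared with p300 alone over all windows, neither passed (GC box 20.7 against 24.0%, adjusted exact p = 0.201, NRF1 3.13 against 4.31%, adjusted exact p = 0.382). With the motif window of 100 bp both were less frequent than in p300 alone (GC box 38.1 against 45.1%, adjusted exact p = 0.00372, NRF1 5.64 against 8.91%, adjusted exact p = 0.0192). CTCF (AGNGGGCGC), the sequence of the insulator protein, was in 20 members (3.13%, against 0.549% to either side and 0.78% of all N-CoR windows). It was more frequent than in N-CoR alone both near H3K4me3 (3.92 against 0.857%, adjusted exact p = 0.0138) and away from it (1.74 against 0.155%, adjusted exact p = 0.0283), on 16 and 4 members. The call near H3K4me3 was lost with no Runx summit within 1000 bp (4.51 against 1.04%, adjusted exact p = 0.0807) and with a motif window of 100 bp to either side (6.37 against 3.00%, adjusted exact p = 0.0732). Over all windows its 3.13% against the 2.49% of p300 alone did not pass (difference 0.645 points, adjusted exact p = 0.599). TGACGTCA, the cyclic AMP response element, was in 7 members (1.10%) and 0.0784% of windows to either side, and in 0.520% of all N-CoR windows. Its core TGACGT, which it contains, was in 25 (3.92%, against 0.940% to either side and 2.19% of all N-CoR windows). Near H3K4me3 it was more frequent than in p300 alone (4.90 against 2.46%, adjusted exact p = 0.0283), a call lost with no Runx summit within 1000 bp (adjusted exact p = 0.195) and with a motif window of 100 bp (adjusted exact p = 0.191). There it was in 7.28% of windows with N-CoR alone and 4.23% of those with p300 and a Runx protein. Neither differed from the members past the threshold (adjusted exact p = 0.368 and 0.804).

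Genes with a member within 1000 bp of a protein-coding start numbered 407 of 19807 (2.05%). The regulators among them, by the lists described with the processing, were few. Of 17 genes for histone acetyltransferases and co-activators, KAT6A and CITED2 had a member. KAT6A encodes a MYST-family acetyltransferase and CITED2 a protein that binds p300 and CBP. At KAT6A the N-CoR summit was at -42 bp and at CITED2 at -35 bp, and the p300 summits were 85 and 55 bp away. None of 20 genes for co-repressors and deacetylases had one, nor did any of 21 genes of the NF-kB and interferon response or of 30 cell cycle genes. An N-CoR window of some class was at a start of 9, 6 and 4 genes of these 3 lists.

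Among 18 ETS factor genes, SPI1, which encodes PU.1, and ELF2 had a member at the start. The SPI1 summit was at -44 bp, with p300 20 bp away. The ELF2 summit (chr4:140005417-140005516) was at 12 bp, with p300 at 17 bp and an AML1-ETO summit at 245 bp from it, and SPI1 had an AML1-ETO summit 122 bp away. At each of the pair a further N-CoR summit, joined by p300 and AML1-ETO summits, lay downstream, at 1319 bp for ELF2 and 1791 bp for SPI1. DUSP2, which encodes a phosphatase of MAP kinases, had its member at -50 bp and ATF7, a bZIP factor gene, at -18 bp, the only ones of 34 AP-1, ATF and immediate early genes.

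Blood transcription factor genes gave 2 of 25. BCL11A, a zinc finger repressor gene, had its member at 489 bp, and MYC, a growth regulator gene, at -119 bp. Both counted as away from H3K4me3, the nearest summits being 2206 and 2031 bp distant. A further N-CoR summit at MYC, at -1275 bp, was accompanied by p300 at -1277 bp and AML1 at -1182 bp. The 8 genes from the hand-made lists of 165 compare with the 2.05% of all protein-coding genes as 2 of 17, 2 of 18, 2 of 25 and 2 of 34 in the lists that had any. These counts are too small to be read further.

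**Figure D5:**
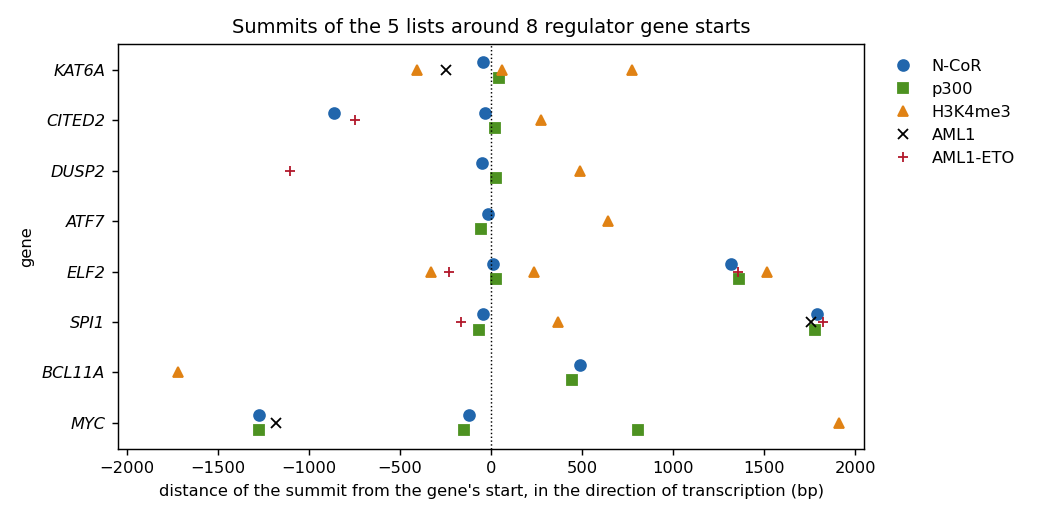
Summits of N-CoR, p300, H3K4me3, AML1 and AML1-ETO within 2000 bp of the starts of the 8 regulator genes with a member, in the direction of transcription (bp); each symbol is 1 summit and the dotted line is the start. N-CoR and p300 lie within 99 bp of each other near each start, and at ELF2 and SPI1 a second N-CoR and p300 pair with a Runx protein lies downstream.

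Histone and splicing factor genes held the largest numbers among the families of housekeeping genes apart from the much longer list of ZNF genes. Core histone and H1 genes, which cluster on chromosome 6 and are transcribed in S phase, had a member at 8 of 89 (8.99%). The first 4 in list order were at H2AC8 (-56 bp), H4C3 (-56 bp), H3C11 (-29 bp) and H4C12 (-105 bp). In these 4 the p300 summits were 99, 83, 77 and 99 bp from the N-CoR summits, above the upper quartile of 55 bp. One window served both H2BC9 and H3C7, so the 8 genes rest on 7 members, and genes of the histone family share similar coding sequence, where reads may map ambiguously. An N-CoR window of some class was at 49.4% of the histone genes and at 12.2% of all protein-coding genes.

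Splicing factor genes had a member at 6 of 72 (8.33%), the first 4 being HNRNPD (-3 bp), SNRPB2 (17 bp), U2AF2 (-314 bp) and SRSF7 (24 bp). Of these, HNRNPD had AML1 and AML1-ETO summits 185 and 162 bp away. Any N-CoR window was at 41.7% of this list and any p300 window at 88.9%. Genes for cytosolic ribosomal proteins gave 2 of 86 (RPS27 and RPL36), mitochondrial ribosomal proteins 3 of 78 (MRPL24, MRPL30 and MRPL21), proteasome subunits 2 of 48 (PSMF1 and PSMB7), aminoacyl-tRNA synthetases 1 of 34 (YARS1), respiratory complex I 1 of 37 (NDUFS3) and zinc finger genes named ZNF 12 of 508. A p300 window of some class was at 93.0% of the ribosomal protein genes, and at 36.2% of all protein-coding genes. These shares are descriptions, with no test.

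The lowest-numbered members near H3K4me3 included those of NEAT1 and TFDP1. NEAT1, the long non-coding RNA that builds paraspeckles (chr11:65189774-65189873), had its N-CoR summit at -421 bp, with p300 96 bp and H3K4me3 262 bp away, and AML1 and AML1-ETO summits 386 and 394 bp away. TFDP1 encodes the dimerization partner of E2F factors (chr13:114238560-114238659, -426 bp), and its H3K4me3 summit was 29 bp away, one of the 8 within 100 bp. VPS37B, an ESCRT-I subunit gene, was at -432 bp and MYO18A, an unconventional myosin gene, at 97 bp. LINC03047 (-23 bp), KAT6A, ENSG00000262898 and LINC02580 made up the 8, of which that of LINC02580 was in an intron, -11354 bp from the nearest start. Of these 8, 6 had an AML1 or AML1-ETO summit between 100 and 500 bp away, all except TFDP1 and VPS37B.

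Away from H3K4me3 the lowest-numbered member was at TRIB1, whose product directs the degradation of C/EBP alpha. Its N-CoR and p300 summits were 2 bp apart at -105 bp from the start, and the nearest H3K4me3 summit, at 1036 bp, was just past the limit. RRP12, a ribosome biogenesis gene, had its member at 677 bp (chr10:99125590-99125689) with the nearest H3K4me3 summit 31945 bp away. The member nearest to MYEOV (chr11:69064715-69064814) was in an intron, 1712 bp downstream of the start, with AML1 and AML1-ETO summits 199 and 212 bp away. BCL2L1-AS1, HNRNPA1L3, ENSG00000278095, ENSG00000280028 and LINC01877 completed the 8, the first 2 and the last 2 of these 5 lying in introns.

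Some genes had 2 or more members within 5000 bp. These were counted without regard to gene length and with no share for other windows beside them, so they are a description. CD79A, which encodes a signalling chain of the B cell receptor and is expressed in some t(8;21) leukaemias, had 3 members within 5000 bp of the gene. They were at 322 bp from its own start and at 4 and -89 bp from starts of the neighbouring ARHGEF1, a gene for a guanine nucleotide exchange factor. Only the latter 2 were near H3K4me3. AML1-ETO summits lay 133, 164 and 1257 bp from the 3 members. CDK6, a cell cycle kinase gene, also had 3, one near H3K4me3, at -237 bp from the start of a CDK6 transcript without a defined coding sequence and over 1000 bp from that of any coding one, and 2 in introns, more than 50 kb from any H3K4me3 summit. KIF26B, JMJD1C, U2AF2 and ARHGEF1 had 2 each. JMJD1C encodes a jumonji-domain protein, and its members were a promoter one near H3K4me3, at -239 bp from the protein-coding start, and an intronic one away from it.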

How the data were processed

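ChIP-seq of Kasumi-1 cells was used as deposited summit lists. According to the submitters' processing notes the tools were CASAVA 1.6, Bowtie 0.12.8 and MACS2 2.0.10.20131216. The authors aligned reads to GRCh37 (hg19), pooled replicates and called peaks. The deposited columns are positions of 100-bp windows, without read counts or scores, so that depth and a stricter threshold were not available to these comparisons. H3K27me3 and input were not analysed here.

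Windows of different lists overlapped when they shared at least 1 bp. Starts, genes and elements came from GENCODE release 44 lifted to GRCh37 (254413 transcripts). A promoter was the sequence within 1000 bp of a start and took precedence over exons, introns and upstream sequence (within 10 kb), the remainder being intergenic. The 22 consensus sequences were searched on both strands within 50 bp of the summit, and their background was the windows 1000 bp to either side. Classes were compared by two-sided Fisher's exact tests. Alternatives were other window widths, overlaps, distances, motif windows and backgrounds, a p300-centred window, a Runx distance of 1000 bp and leaving out chromosomes.

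The members, gene lists (15, of which 7 were typed by hand and 8 taken by symbol) and tests were chosen with earlier results of these data known. Named genes were the 8 lowest-numbered members near H3K4me3 and the 8 away from it, genes of the typed lists, up to 4 examples of each other list (H2BC9 and H3C7 were named after their values were seen), up to 8 genes with several members, and the 3 windows on either side of the overlap limit. Some genes and windows that these rules select are not reported here. Overlap, motif and annotation counting was tested on simulated data. Python 3.11.15, numpy 2.4.6, pandas 2.3.3, SciPy 1.17.1, pysam 0.24.0, samtools 1.23.1, bedtools 2.31.1 and matplotlib 3.10.9 were used.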

Additional observations from a re-analysis of the deposited data

How the results depend on the processing

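The lists hold summits from pooled replicates, without scores or depth, so neither the spread between replicates nor weak binding could be measured. No stricter threshold was run. The first part of the list in deposited order was looked at instead. Because that order is not stated to be a ranking, it cannot show what a stricter threshold would give. No paired analysis was possible because each antibody has a single pooled list. The share of members near H3K4me3 was 51.9% within 500 bp, 59.3% with at least 50 bp shared with p300 and 46.7% in the first 5002 windows of the list. The share at a start was 59.4% within 500 bp, 71.0% within 2000 bp and 57.1% for protein-coding genes only. With each chromosome left out in turn, these shares ranged from 62.6 to 64.7% and from 64.1 to 65.4%, and the difference near H3K4me3 from 36.1 to 38.1 points against N-CoR alone.

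The number of sequences that differed depended on the group of windows. Those more frequent than in p300 alone were 5 over all windows, 6 near H3K4me3 and 4 away from it. Against N-CoR alone, 4 were more and 5 less frequent over all windows, 2 more and 0 less near H3K4me3, and 1 more and 0 less away from it. Those less frequent than in p300 alone went from 1 to 0 near H3K4me3 and 0 away from it, and to 3 with a motif window of 100 bp to either side. Against windows with p300 and a Runx protein, those more frequent went from 4 to 0 in both groups, and those less frequent from 3 to 3 near H3K4me3 and 1 away from it. The Runx sequence TGTGGT was among the less frequent each time, and away from H3K4me3 it was the only one. That comparison is tied to the rule that chose the members, so its place in these counts is a description. At an unadjusted p under 0.05 the counts of 0 became 2 near H3K4me3 and 0 away from it for N-CoR alone (less frequent), 2 and 0 for p300 alone (less frequent) and 1 and 2 for windows with a Runx protein (more frequent), by Fisher's exact test. Of the differences that passed over all windows, those that turned sign within a group of windows, none of them past the threshold there, were CCGGAA away from H3K4me3 against p300 alone (-0.872 points) and against windows with a Runx protein (-3.42 points), GAGGAA near H3K4me3 against N-CoR alone (0.088 points) and the GC box away from H3K4me3 against windows with a Runx protein (-0.757 points). The GC box exceeded its background by 13.6 points with windows 1000 bp away and by 7.60 points with windows 300 bp away. Other backgrounds were also higher at 300 bp, with 3.61% for CCGGAA, 1.18% for NRF1, 0.940% for CTCF, 0.235% for TGACGTCA and 1.57% for TGACGT. That of C/EBP was lower, at 3.68%. With no Runx summit within 1000 bp, an alternative chosen after seeing the data for sequences, the difference in CCGGAA was 1.15 points from p300 alone over all windows (adjusted p = 0.783, Fisher's exact test) and 1.93 points from windows with a Runx protein (adjusted p = 0.543). With members centred on the p300 summit, TGACGTCA (0.920 points, adjusted p = 0.0388) and TGACGT (1.74 points, adjusted p = 0.0424) passed against p300 alone over all windows, by Fisher's exact test. Only the share near H3K4me3 was compared within the first 5002 windows and within the rest, a split also chosen after seeing the data. Its differences from N-CoR alone and from windows with p300 and a Runx protein kept their direction and passed. The latter was 8.62 points in the rest of the list. Sequences, starts and p300 alone were not compared by list position. The causes were not tested.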

Other observations

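Members were 9.57% of the N-CoR windows on chromosome 17 (55 of 575) and 3.59% of those on the X chromosome (7 of 195), the highest and lowest shares of any chromosome. Without chromosomes 8 and 21, which the translocation joins, 602 members were left. The peak names in the N-CoR list carry the prefix of the AML1-ETO list, and those in the p300 and H3K4me3 lists carry that of AML1. Lists were assigned to antibodies by their sample records and not by these names, and whether the names reflect more than a reused label was not tested. The number of windows differs between all 5 lists: the AML1 list has 11692 and the AML1-ETO list 18087, beside 10004, 11020 and 19632 in the lists of N-CoR, p300 and H3K4me3.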
